A study of Mus musculus with 9 samples.

Results

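The genes described here are 36 components of macroautophagy, the route by which cells enclose cytoplasm in a double membrane and deliver it to lysosomes. They were taken by name from the 21853 protein-coding genes measured in brain RNA of mice, as the listed genes for initiation, the PI3-kinase complex, membrane growth, conjugation, cargo receptors, the factors TFEB and TFE3 and the lysosomal membrane. Each of the 36 was found once, and each passed the filter on low values. The lowest mean in any group was 335 (Optn, in the WNT5B group), so none was close to the limit of detection. There were 9 poly(A) RNA libraries in 3 groups of 3. WT-Control libraries came from wild-type mice given the virus pAAV-GFAP(pro)-Control-mCherry, which carries mCherry alone behind the promoter of the astrocyte gene GFAP. HD-Control libraries came from Huntington's disease (HD) mice, named as N171-82Q in the series text, given the same virus. HD-WNT5B libraries came from HD mice given pAAV-GFAP(pro)-WNT5B-P2A-mCherry, in which the same promoter drives the Wnt ligand WNT5B joined to mCherry through a P2A peptide. All 3 groups therefore received an mCherry virus with an astrocyte promoter, and no uninjected group or wild-type group with WNT5B was analysed here. The N171-82Q line carries a transgene for an N-terminal fragment of huntingtin with an expanded glutamine tract, driven by the prion promoter. Injection was into the striatum according to the series text, while the labels name only brain, and neither gives sex, age or which mouse each library is from.

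Autophagy starts when the ULK kinase complex activates the class III PI3-kinase, whose lipid product recruits WIPI proteins and the lipid carrier ATG2 to a growing membrane fed by ATG9 vesicles. A pair of ubiquitin-like conjugation systems then attaches proteins of the Atg8 family (LC3 and GABARAP) to that membrane, and receptors such as p62 tether ubiquitinated cargo to them. The filled vesicle fuses with a lysosome, and TFEB and TFE3 raise transcription of both autophagy and lysosomal genes. In neurons the pathway clears protein aggregates and old organelles, and huntingtin aggregates are among its cargo. Messenger RNA levels say nothing of the flux through the pathway, which was not measured here.

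Values are normalised read counts, which the authors deposited as decimals and which, from their steps, were scaled by 1 factor per library with no division by gene length. A difference is a log2 fold change of value plus 3, tested with limma over 15411 genes with Benjamini-Hochberg adjustment, and a gene is called changed at an adjusted p under 0.05. Errors after ± are SD over the 3 libraries of a group, and SE is that of the limma fit. The WNT5B-labelled libraries stood apart from the other 6. They held 14291 to 14588 genes above 0, against 17027 to 17349 in the others, and their 100 most abundant genes took 23.33 to 24.24 percent of the summed values, against 14.4 to 15.36 percent. For the 36 autophagy genes the log2 values had a median SD of 0.165 in WNT5B-labelled libraries, 0.032 in WT and 0.02 in HD libraries. Since the fit shares 1 spread over the 9 libraries, each comparison of HD with WT is also given with a variance weight per group (below, a spread per group) where that changes the call. No label says that the 3 libraries of a group are separate animals, so the p-values measure only the spread between these libraries, which may be technical. The carried gene did not separate the labelled groups. Mouse Wnt5b was at 74.6, 63.8 and 57.7 in WT, 63.8, 44.2 and 49.3 in HD and 184, 22.5 and 212 in WNT5B-labelled libraries (WNT5B against HD, log2 0.88, SE 0.73, limma adjusted p = 0.298), with the second library labelled WNT5B below all the others. The species of the viral WNT5B sequence is not given in the labels, so whether its reads would be counted under the mouse gene is not known here, and WNT5B-labelled libraries are named by their label. Without that second library, 14 autophagy genes were higher and 17 lower against HD, the same numbers as with it.

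Markers of each main brain cell type were above 10 in every library. Levels of cell type markers moved with the groups. Of 6 neuron markers 4 were lower in HD than in WT and 2 not called (summed 272180 to 272840 in WT and 233210 to 233650 in HD). Of 8 striatal projection neuron markers 5 were lower and 3 higher (351390 to 354800 in WT and 354740 to 359300 in HD, and 244820 to 261770 in WNT5B-labelled libraries). In HD against WT all 8 microglia markers were lower (summed 27880 to 28246 in WT and 10961 to 11025 in HD), 7 of 8 oligodendrocyte markers were lower and 1 not called (464270 to 469190 and 338480 to 340890), and 5 of 6 cortical excitatory neuron markers were lower (24273 to 24983 and 10811 to 10837). Astrocyte markers had 5 lower, 1 higher and 2 not called, with sums of 278460 to 282830 in WT and 165690 to 166940 in HD. In the WNT5B-labelled libraries the sums were 79787 to 92182 for neurons, 760750 to 807950 for oligodendrocytes, 39110 to 43982 for microglia and 42260 to 49816 for endothelium (9845.1 to 9881 in HD). Single markers of 1 cell type went opposite ways there: the astrocyte genes S100b and Aqp4 changed by 3.99 and -3.43 on the log2 scale against HD. In bulk RNA fewer cells of a type and less RNA per cell cannot be told apart, and the part of these shifts in the autophagy results was not tested.

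In HD-Control against WT-Control, 15 of the 36 autophagy genes rose, 1 fell and 20 were not called. The share called, 44.4 percent, was near the 45.1 percent of all genes tested, which divide into 24.5 percent higher and 20.7 percent lower. The median log2 difference was 0.12 for the autophagy genes and 0.02 for all genes, and the median size without sign was 0.19 and 0.39. The changes were thus mostly small: 2 of the 36 were at least 1.5-fold higher and called (11 percent of all genes) and 1 was at least 1.5-fold lower (12 percent). With a spread per group, 22 were higher, 7 lower and 7 not called, where 43.1 and 39.9 percent of all genes were called higher and lower. Without the second WNT5B-labelled library, which enters only the shared spread, 17 were higher and 3 lower. In 21 genes every HD library was above every WT library and in 6 below (43.6 and 40.4 percent of all genes). Sqstm1, which encodes the ubiquitin-binding receptor p62, and Atg16l1, which directs LC3 conjugation to the membrane, were the largest rises. Ulk2, an initiation kinase, was the fall.

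**Figure D1:**
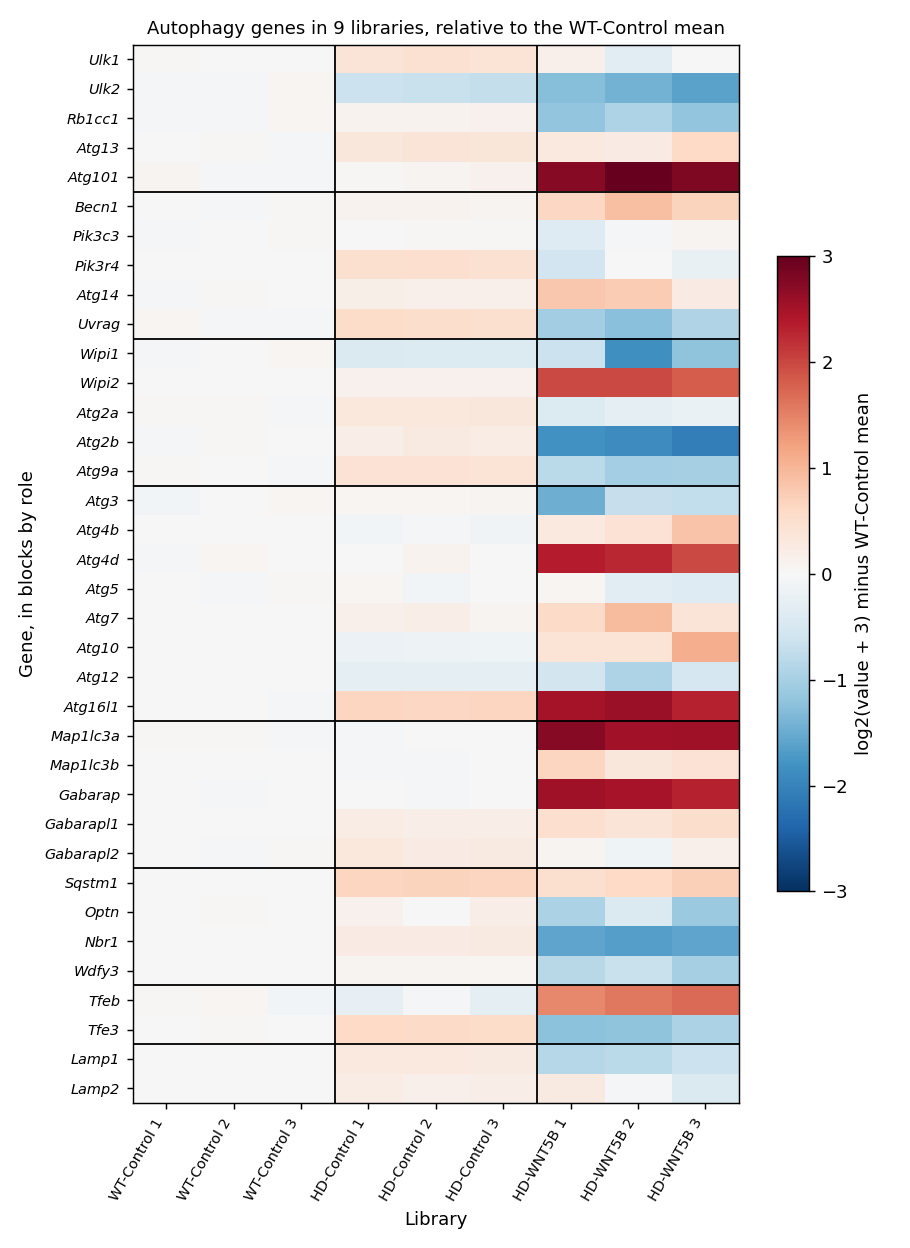
Heat map of 36 autophagy genes (rows, in blocks by role) in 9 libraries (columns), as log2(value + 3) minus the mean of the 3 WT-Control libraries. HD-Control columns are mostly pale, with Ulk2 lower and Sqstm1, Atg16l1 and Tfe3 higher, and HD-WNT5B columns are strongly coloured in both directions; with equal totals in all libraries the WNT5B values shift downward.

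The initiation kinases moved in opposite directions. Ulk1, the kinase that starts autophagy when mTORC1 is inactive, was at 3836, 3699 and 3704 in WT and 4929, 5142 and 4985 in HD libraries. It rose by 0.42 (SE 0.10, limma adjusted p = 0.00961), and every HD library was above every WT library. Ulk2, its paralog, was at 6063, 6097 and 6439 in WT and 3950.3, 3869 and 3779 in HD libraries, again without overlap. It fell by 0.68 (SE 0.08, limma adjusted p = 1.4e-04). Per kilobase of the longest transcript, mean levels in WT were 719 for Ulk1 and 1079.5 for Ulk2, and in HD 963 and 673, so the order of the levels of the 2 kinases was exchanged. In mm10 (GENCODE M21) Ulk1 lies on chromosome 5, 110784488 to 110810097, minus strand, and Ulk2 on chromosome 11, 61775649 to 61855073, minus strand.

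Of their 3 partners, Atg13, the adaptor that joins the kinase to the scaffold, rose from 5365 ± 111 to 6899 ± 127 (log2 0.36, SE 0.08, limma adjusted p = 0.0067). Rb1cc1, the scaffold FIP200, was at 5902 ± 239 and 6388 ± 20.1 and was not called (0.11, limma adjusted p = 0.22), but passed with a spread per group (adjusted p = 3.3e-04) and with the trend on transcript length and GC content removed (0.19, adjusted p = 0.0375). Atg101, the stabiliser of Atg13, was at 1109, 1025 and 1028 in WT and 1082, 1112 and 1146 in HD libraries, with overlapping groups (0.08, adjusted p = 0.591, and 0.0389 with a spread per group).

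In the class III PI3-kinase complex the catalytic subunit was not called and 2 regulators rose. Of its 5 genes 40 percent were called, near the 45.1 percent of all genes. Pik3c3, the lipid kinase VPS34, was at 2681, 2799 and 2832 in WT and 2763, 2827 and 2831 in HD libraries, which overlap (log2 0.02, SE 0.10, limma adjusted p = 0.906). Pik3r4, its membrane-anchoring subunit VPS15, was at 4171, 4142 and 4122 in WT and 5789.5, 5851 and 5701 in HD libraries. It rose by 0.48 (SE 0.12, adjusted p = 0.0114). Uvrag, the subunit of the complex that acts in endosome and vesicle maturation, had means of 1923 ± 70.5 in WT and 2758 ± 55.9 in HD libraries and rose by 0.52 (SE 0.09, adjusted p = 0.00164), and its exons overlap another gene model over 17.59 percent of their bases. Atg14, the subunit that targets the kinase to autophagosome formation and replaces Uvrag in that form of the complex, was at 1621 ± 55.1 and 1812 ± 15.3 (0.16, adjusted p = 0.376, and 1.5e-04 with a spread per group). Becn1, the beclin 1 scaffold whose reduction is studied in neurodegeneration, was at 5774, 5684 and 5928 in WT and 6269, 6198 and 6095 in HD libraries. The difference was 0.09 (adjusted p = 0.294, and 3.0e-04 with a spread per group). Cntd1 overlaps 43.93 percent of its exon bases, and since the library kit is not stranded, reads of the 2 genes there cannot be told apart.

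Of the 5 genes for membrane growth 4 were called higher, where 24.5 percent of all genes were, and 2 of these calls were lost without single libraries. Atg9a, the scramblase carried on seed vesicles, was at 9565, 9305 and 9052 in WT and 12568, 12669 and 12396 in HD libraries, and rose by 0.43 (SE 0.06, limma adjusted p = 3.8e-04). Its exons share 32.59 percent of their bases with Ankzf1 and a gene model. The lipid carriers Atg2a and Atg2b rose by 0.33 and 0.23 (adjusted p = 0.00228 and 0.0296). Wipi2, the lipid sensor that recruits Atg16l1, rose by 0.13 (adjusted p = 0.039), between 6584 to 6687 in WT and 7209 to 7311 in HD libraries. The calls of Wipi2 and Atg2b were lost when any single WT or HD library was left out (adjusted p from 0.0669 to 0.112) and with upper-quartile factors (0.176 and 0.0708), and that of Wipi2 also with trimmed-mean factors (0.0523) and with the replicate number as a block (0.0698). Wipi1, a second sensor of the same lipid, went the other way, at 1679, 1689 and 1774 in WT and 1271, 1296 and 1284 in HD libraries (-0.42, SE 0.25, adjusted p = 0.218). Its HD libraries were all below its WT libraries, its WNT5B-labelled libraries scattered from 475 to 1100.0, and the difference passed with a spread per group (adjusted p = 7.7e-08).

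**Figure D2:**
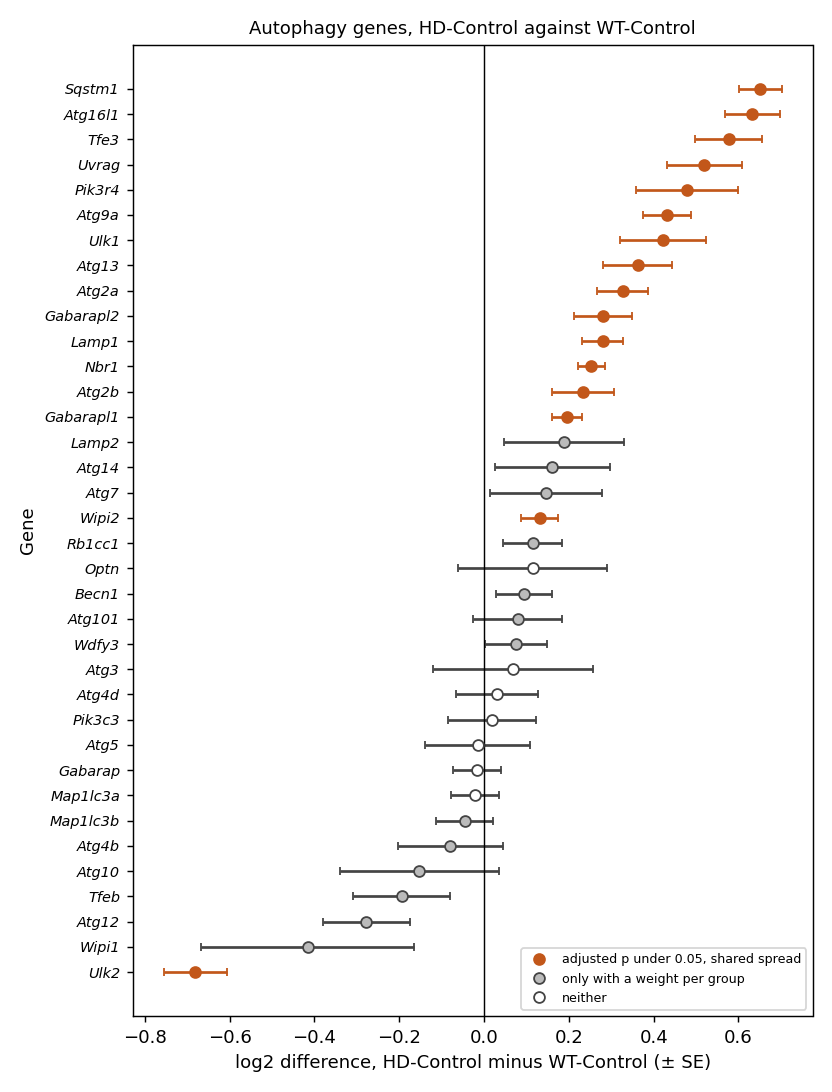
log2 difference between HD-Control and WT-Control (horizontal axis, ± SE of the limma fit, n = 3 libraries each) for 36 autophagy genes, sorted. Sqstm1 and Ulk2 mark the ends, 16 genes pass with the shared spread (orange), 13 more pass only with a spread per group (grey) and 7 pass with neither (white).

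In the conjugation machinery 1 of 8 genes was called, the lowest share of the 8 roles, where 45.1 percent of all genes were called. With a spread per group 2 were higher and 3 lower (43.1 and 39.9 percent of all genes), and the share was no longer the lowest. Atg16l1 was at 3641, 3628 and 3483 in WT and 5629, 5469 and 5577 in HD libraries. It rose by 0.63 (SE 0.06, limma adjusted p = 9.3e-05), without overlap. It lies on chromosome 1, 87755870 to 87792428, plus strand. Neither of its partners in the same complex was called. Atg5, which binds Atg16l1 once joined to Atg12, was at 1067, 1017 and 1092 in WT and 1095, 997 and 1053 in HD libraries (-0.01, adjusted p = 0.941). Atg12, the ubiquitin-like protein joined to Atg5, was at 3773, 3676 and 3717 in WT and 3112, 3037 and 3060.3 in HD libraries (-0.28, adjusted p = 0.055, and 8.3e-09 with a spread per group), so its HD libraries were all lower while the call depended on the spread. The E1-like enzyme Atg7 and the E2-like enzymes Atg3 and Atg10 differed by 0.15, 0.07 and -0.15 (adjusted p = 0.414, 0.811 and 0.558). The proteases that prime and release Atg8 proteins, Atg4b and Atg4d, differed by -0.08 and 0.03 (adjusted p = 0.649 and 0.831). Of these 5, Atg7, Atg10 and Atg4b passed with a spread per group (adjusted p = 0.00236, 0.0132 and 0.00571).

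Of the 5 Atg8-family genes, 2 of the GABARAP branch rose and the LC3 genes were not called. The share called, 40 percent, was near the 45.1 percent of all genes. Gabarapl1 had the highest level per kilobase of the 36 genes in WT, 18760.0, against 3919 for Gabarap, 3089 for Gabarapl2, 4479 for Map1lc3a (LC3A) and 2018 for Map1lc3b (LC3B). It was at 34191, 34218 and 34020.5 in WT and 39570.1, 38894 and 38920.1 in HD libraries, a rise of 0.20 (SE 0.04, limma adjusted p = 0.00213), and a further gene model covers 28.32 percent of its exon bases. Gabarapl2, also known as GATE-16, rose from 5179.6 ± 118 to 6292 ± 110.2 (log2 0.28, adjusted p = 0.00922). Gabarap itself was at 5335, 5196 and 5353 in WT and 5279, 5137 and 5286 in HD libraries (-0.02, adjusted p = 0.845). Map1lc3a differed by -0.02 and Map1lc3b by -0.05 (adjusted p = 0.81 and 0.636, and 0.382 and 0.0226 with a spread per group). For Map1lc3b that is a mean of 8349.5 against 8093.

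Among the cargo receptors Sqstm1 showed the largest rise of the 36 genes. It was at 18916, 18683 and 18420.2 in WT and 29235, 29459 and 29319.8 in HD libraries, and rose by 0.65 (SE 0.05, limma adjusted p = 1.9e-05), with a gap between the groups many times the spread within them. It lies on chromosome 11, 50199366 to 50210827, minus strand, and 17.28 percent of its exon bases overlap Mrnip. Nbr1, a receptor of similar domain plan that cooperates with p62, rose from 13445 ± 60.6 to 16018 ± 127 (log2 0.25, SE 0.03, adjusted p = 2.9e-04). Optn, optineurin, a receptor for damaged mitochondria and aggregates, was at 576, 600.0 and 580.2 in WT and 641, 593 and 671 in HD libraries, which overlap (0.11, adjusted p = 0.645). Wdfy3, the large adaptor ALFY that links aggregates to the membrane, was at 13009.5 ± 171 and 13702 ± 159.8 (0.07, adjusted p = 0.454, and 7.7e-04 with a spread per group).

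The transcription factors and lysosomal membrane genes had 1 call each, 50 percent of the genes in each role, where 45.1 percent of all genes were called. Tfe3, which with TFEB binds the lysosomal promoter element, was at 2311, 2403 and 2312 in WT and 3528, 3502 and 3457 in HD libraries and rose by 0.58 (SE 0.08, limma adjusted p = 4.7e-04). Tfe3 lies on chromosome X, 7762560 to 7775202, plus strand, and Tfeb on chromosome 17, 47737030 to 47792419, plus strand. Tfeb was at 514, 520.1 and 469 in WT and 419, 480.0 and 416 in HD libraries, with overlap (-0.19, adjusted p = 0.21, and 0.00674 with a spread per group). Per kilobase, Tfe3 was above Tfeb in both groups, 370.1 and 214 in WT and 552 and 187 in HD. Lamp1, the abundant glycoprotein that lines lysosomes, rose from 16569.9 ± 30.7 to 20119 ± 127 (log2 0.28, SE 0.05, adjusted p = 0.00184). Lamp2, which also serves chaperone-mediated autophagy, was at 4099, 4102 and 4133 in WT and 4759.5, 4587 and 4715 in HD libraries (0.19, adjusted p = 0.326, and 1.8e-06 with a spread per group).

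TFEB and TFE3 bind the CLEAR element, an E-box in a longer palindrome, so the promoters of the listed genes were searched for it. RefSeq promoters (GRCm38.p6, the assembly of mm10, from 250 bases before to 50 after a start) were found for 29 of the 36 genes. The full element, which extends the E-box CACGTG by GT before and AC after it and reads the same on both strands, was in 0 of the 29 and in 100 of 27025 genes with a promoter (0.37 percent). The shorter TCACGTGA, with 1 base more than the E-box on each side, was in 1 of 29, Atg3, and in 1.12 percent of all, and the E-box CACGTG that both contain was in 5 of 29, namely Lamp1, Atg3, Atg5, Atg7 and Atg14, and in 8.09 percent of all. Lamp1 carried 4 E-boxes, starting 61, 45, 28 and 15 bases before the start of transcription, and is shown for that cluster. Atg3 is shown for the longer match, and Atg5 and Atg7 for a single E-box each. The Atg7 promoter belongs to a start inside the gene, which begins at 114643097 in GENCODE M21. Capitals mark the E-box, or TCACGTGA in Atg3, whose second E-box stays in lower case. Each is read 5′ to 3′ along the gene.
Lamp1, chr8:13158911-13159160, plus strand: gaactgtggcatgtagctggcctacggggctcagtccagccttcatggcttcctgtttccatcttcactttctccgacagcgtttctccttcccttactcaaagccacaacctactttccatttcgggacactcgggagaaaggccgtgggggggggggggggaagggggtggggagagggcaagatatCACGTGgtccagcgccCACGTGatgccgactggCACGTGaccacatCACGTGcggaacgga
Atg3, chr16:45158735-45158784, plus strand: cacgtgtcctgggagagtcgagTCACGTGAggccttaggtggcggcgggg
Atg5, chr10:44268303-44268352, plus strand: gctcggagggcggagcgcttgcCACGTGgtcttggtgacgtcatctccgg
Atg7, chr6:114670942-114670991, plus strand: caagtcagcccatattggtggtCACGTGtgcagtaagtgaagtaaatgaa
Of these 4 genes Lamp1 was called higher in HD, and the others were not called. A match of letters is a description of the promoter, and binding was not measured.

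**Figure D3:**
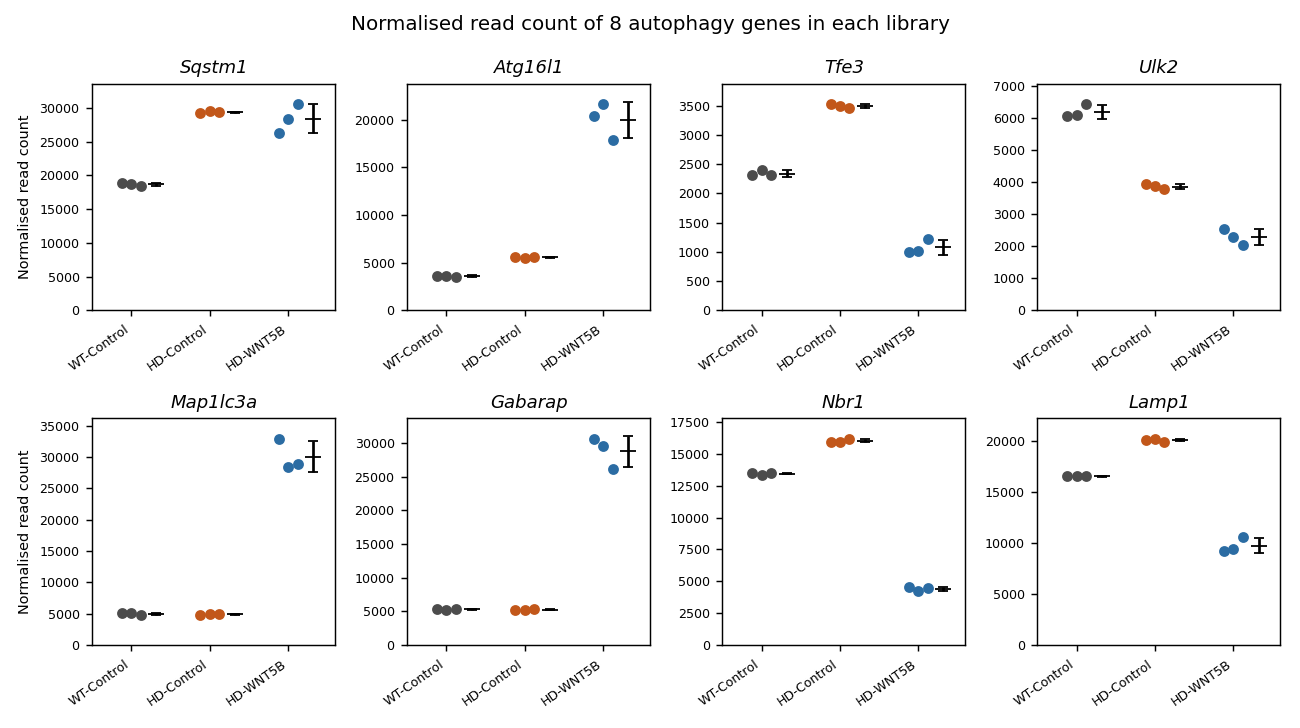
Normalised read count (vertical axis, from 0) of 8 autophagy genes in each of 9 libraries (points), with mean ± SD per group (black). HD libraries lie above WT for Sqstm1, Atg16l1, Tfe3, Nbr1 and Lamp1 and below WT for Ulk2, while Map1lc3a and Gabarap overlap between WT and HD and are several-fold higher in WNT5B-labelled libraries.

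In HD-WNT5B against HD-Control, 14 of the 36 genes rose, 17 fell and 5 were not called. The share called was 86.1 percent, and of all genes tested 77.5 percent were called, 35.8 percent higher and 41.7 percent lower. The all-gene median was -0.23 on the log2 scale, against -0.22 for the 36. Called differences of at least 1.5-fold numbered 10 higher and 14 lower, where the all-gene shares were 30.3 and 36 percent. These shares lie near those of all genes. The largest rises were Atg101, Map1lc3a, Gabarap, Atg4d, Atg16l1, Wipi2 and Tfeb, and the largest falls Atg2b, Nbr1, Tfe3, Uvrag and Atg9a. When the libraries were instead given equal totals, the all-gene median went to -0.77 and the counts to 7 higher and 23 lower (25.7 and 54.6 percent of all genes). All 7 of the largest rises just named stayed higher and called under that scaling.

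The Atg8 genes Map1lc3a and Gabarap and the initiation gene Atg101 gave the 3 largest rises. Map1lc3a was at 4811, 4968 and 4952 in HD and 32881, 28480.4 and 28846 in WNT5B-labelled libraries (log2 2.61, SE 0.06, limma adjusted p = 1.0e-09). Gabarap was at 5279, 5137 and 5286 in HD and 30624, 29571 and 26108 in WNT5B-labelled libraries (2.45, SE 0.06, adjusted p = 1.4e-09). Every WNT5B-labelled library was over 4 times every HD library in both genes, which lie on chromosome 2, 155276297 to 155278073, plus strand and chromosome 11, 69991143 to 69994951, plus strand. Atg101 had means of 1113 ± 31.9 and 7877 ± 1276 (2.81, SE 0.11, adjusted p = 2.7e-08). The other Atg8 genes moved much less. Map1lc3b rose from 8093 ± 109 to 11597 ± 1252 (0.51, adjusted p = 1.1e-04) and Gabarapl1 from 39128 ± 383 to 47429 ± 2222 (0.28, adjusted p = 9.6e-05), but with equal totals both signs flipped (-0.04 and -0.28). Gabarapl2 fell by 0.25 (adjusted p = 0.00845). Per kilobase, Map1lc3a thereby went from 4416 in HD to 27041 in WNT5B-labelled libraries, where Gabarapl1 was at 26060.0. These levels include the trend on length and GC content described below. With that trend removed Map1lc3a changed by 0.90 and Gabarapl1 by -0.38.

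Transcript length moved with these differences in all genes. The median log2 difference between WNT5B and HD libraries was 1.05 over 3120 genes with a longest transcript under 2 kilobases, -0.12 at 2 to 4 kilobases (6395 genes), -0.64 at 4 to 6 (3669 genes) and -1.08 above 6 (2227 genes). The 36 autophagy genes had medians of 1.62, -0.15, -0.42 and -1.21 in the same ranges (6, 13, 12 and 5 genes). Across the 36 genes the rank correlation of the difference with length was -0.46, given as a description, and across all 15411 it was -0.35. Between HD and WT these values were 0.24 and -0.05. The 5 genes above 6 kilobases, Wdfy3, Rb1cc1, Atg2b, Atg2a and Tfe3, all fell. With the trend on length and GC content removed in each library, 15 of the 36 were higher and 16 lower (36 and 38.2 percent of all genes). Map1lc3a was then at 0.90, Gabarap at 1.58 and Atg101 at 1.42, all still called. Gabarapl1 reversed to -0.38 and Atg12 to 0.35, and the falls of Rb1cc1 and Ulk2 shrank to -0.01 and -0.06 and were not called.

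**Figure D4:**
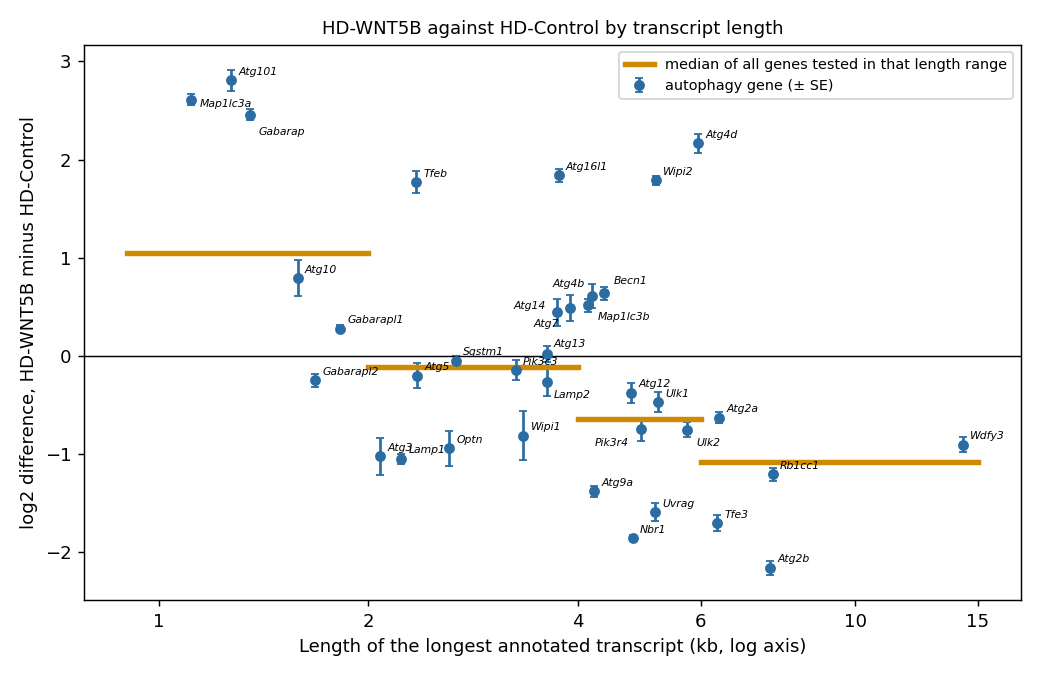
log2 difference between HD-WNT5B and HD-Control (vertical axis, ± SE, n = 3 libraries each) against the length of the longest transcript (log axis, kilobases) for 36 autophagy genes (blue points), with the median of all genes tested in 4 length ranges (orange bars). The orange bars step from 1.05 below 2 kilobases to -1.08 above 6. Atg4d, Wipi2, Atg16l1 and Tfeb lie well above the bar of their range while Nbr1, Uvrag and Atg2b lie below it. With equal totals Map1lc3b, Gabarapl1, Atg7, Atg14 and Atg13 change sign.

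Several longer genes rose against that trend. Atg16l1 was at 5629, 5469 and 5577 in HD and 20389, 21609 and 17874 in WNT5B-labelled libraries (log2 1.84, SE 0.06, limma adjusted p = 1.8e-08, and 2.33 with the trend removed). Wipi2, which recruits Atg16l1, went from 7269 ± 52.8 to 25163 ± 1533 (1.79, SE 0.04, adjusted p = 2.1e-09, and 2.09 with the trend removed). Atg4d went from 1229 ± 48.4 to 5563 ± 745 (2.17, SE 0.10, adjusted p = 8.9e-08), and Kri1 overlaps 19.34 percent of its exon bases. All WNT5B-labelled libraries were above all HD libraries in these 3 genes, as they were in 5584 of the 15411 genes tested (below in 6547). Within the conjugation machinery, Atg4b, Atg7 and Atg10 rose by 0.61, 0.49 and 0.79 (adjusted p = 0.00174, 0.00804 and 0.00412), while Atg3 and Atg12 fell by 1.02 and 0.38 (adjusted p = 9.8e-04 and 0.00864) and Atg5 was not called (-0.20, adjusted p = 0.168, but -0.34 and adjusted p = 0.00213 without the first WNT5B-labelled library). With equal totals Atg5 was called lower (-0.75, adjusted p = 4.4e-04), Atg7 changed sign (-0.06), and Atg4b and Atg10 were no longer called (0.06 and 0.24). Atg5 and Atg16l1, subunits of 1 complex, thus stood at 920.1 ± 164 and 19957 ± 1905 in WNT5B-labelled libraries.

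In the initiation complex 1 gene rose and 3 fell, and in the lipid kinase complex 2 rose and 2 fell. Among the membrane growth genes 1 rose and 4 fell, and Atg101 and Wipi2 (above) were the largest rises of these roles. Of all genes 35.8 percent were higher and 41.7 percent lower. With the length and GC trend removed the initiation complex had 1 higher, 1 lower and 3 not called (36 percent of all genes higher and 38.2 percent lower). Atg2b went from 3626, 3809 and 3686 in HD to 891, 856 and 742 in WNT5B-labelled libraries (log2 -2.16, SE 0.07, limma adjusted p = 1.4e-08), the largest fall of the 36. Atg9a fell by 1.38 and Atg2a by 0.63 (adjusted p = 5.0e-08 and 1.3e-05). Wipi1 fell by 0.82 (SE 0.25, adjusted p = 0.0157), with WNT5B-labelled libraries at 1100.0, 475 and 738, the widest replicate spread of the list at 2.31 times between highest and lowest. Of the kinase complex, Ulk1, Ulk2 and Rb1cc1 fell by 0.47, 0.75 and 1.21 (adjusted p = 0.00252, 1.8e-05 and 4.4e-07). Atg13 was at 6754, 6992 and 6952 in HD and 6534, 6406 and 8089 in WNT5B-labelled libraries, with overlap (0.01, adjusted p = 0.876, but -0.09 and adjusted p = 0.0203 without the third WNT5B-labelled library). With equal totals Atg13 was called lower (-0.54, limma adjusted p = 5.9e-04). In the lipid kinase complex Uvrag fell from 2758 ± 55.9 to 917 ± 111 (-1.59, adjusted p = 3.7e-07) and Pik3r4 by 0.75 (adjusted p = 4.2e-04). Becn1 and Atg14 rose by 0.64 and 0.44 (adjusted p = 2.5e-05 and 0.0149), but with equal totals Becn1 was at 0.08 and not called and Atg14 at -0.11. Pik3c3 was not called (-0.15, adjusted p = 0.229, and -0.25 with adjusted p = 0.0297 without the third WNT5B-labelled library), and with equal totals it was called lower (-0.70, adjusted p = 3.1e-04).

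Receptors and lysosomal membrane genes were lower or not called, where 41.7 percent of all genes were lower and 35.8 percent higher. Nbr1 went from 15962, 15927 and 16164 in HD to 4519.9, 4250.1 and 4475 in WNT5B-labelled libraries (log2 -1.86, SE 0.03, limma adjusted p = 2.7e-10), with little spread in either group. Sqstm1 was at 29235, 29459 and 29319.8 in HD and 26220.0, 28358 and 30532 in WNT5B-labelled libraries, with overlap (-0.05, SE 0.05, adjusted p = 0.372). It was called lower with equal totals (-0.61), with the length and GC trend removed (-0.40) and without the third WNT5B-labelled library (-0.11, adjusted p = 0.0186). Optn and Wdfy3 fell by 0.94 and 0.90 (adjusted p = 0.00104 and 4.3e-06). Lamp1 fell from 20119 ± 127 to 9742 ± 737 (-1.05, SE 0.05, adjusted p = 1.1e-07), and Lamp2 was not called, at 4933, 3930.5 and 3062 (-0.26, adjusted p = 0.12). Lamp2 was called lower with equal totals (-0.82, adjusted p = 4.6e-04), higher with the trend removed (0.50) and lower without the first WNT5B-labelled library (-0.43, adjusted p = 0.00347).

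The 2 TFE factors changed in opposite directions. Tfeb was at 419, 480.0 and 416 in HD and 1356, 1513 and 1645 in WNT5B-labelled libraries, a rise of 1.77 (SE 0.11, limma adjusted p = 9.7e-07). Tfe3 was at 3528, 3502 and 3457 in HD and 1002, 1007 and 1218 in WNT5B-labelled libraries, and fell by 1.70 (SE 0.08, adjusted p = 1.1e-07). Neither gene's groups overlapped, where 5584 of the 15411 genes tested were higher without overlap and 6547 lower. Both calls held with the length and GC trend removed (0.94 and -1.29). Per kilobase, Tfeb was at 642 and Tfe3 at 170.0 in WNT5B-labelled libraries, where Tfe3 had been above Tfeb in the other 2 groups. Summed oligodendrocyte markers were higher in the same libraries (above), and their part in the Tfeb value was not tested.

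HD-WNT5B against WT-Control shares its WNT5B-labelled libraries with the comparison just given and its WT libraries with the first. There 16 of the 36 rose, 14 fell and 6 were not called. The share called was 83.3 percent, against 77.9 percent of all genes, 35.9 percent higher and 42.1 percent lower. Atg16l1 was above WT in WNT5B-labelled libraries (2.47, limma adjusted p = 2.8e-09) and Ulk2 below (-1.43, adjusted p = 2.3e-07). Sqstm1 was also above WT (0.60, SE 0.05, adjusted p = 5.2e-06), but with equal totals it was at 0.02 and not called (adjusted p = 0.76), and with the length and GC trend removed at 0.25. Ulk1 and Gabarapl2, both higher in HD than in WT, were not called against WT in WNT5B-labelled libraries (-0.05 and 0.03, adjusted p = 0.661 and 0.684). With equal totals both were called below WT (-0.63 and -0.55, adjusted p = 6.7e-04 and 1.9e-04). So were Pik3c3, Pik3r4, Atg5 and Lamp2 (-0.71, -0.85, -0.79 and -0.66), which were not called at the deposited scale. At that scale each was called below WT when 1 WNT5B-labelled library was left out. The values were -0.36 (Atg5) and -0.24 (Lamp2) without the first, -0.4 (Pik3r4) without the second and -0.23 (Pik3c3) without the third. Their limma adjusted p ran from 0.0017 to 0.042. Pik3r4 also passed with a spread per group (adjusted p = 0.0394). Gabarapl2 was called higher without the second library (0.11, adjusted p = 0.0269). At the deposited scale Ulk1 read 4149.7, 3013 and 3778, against 3836, 3699 and 3704 in WT. A p above the threshold does not show that the levels were equal. Tfe3, Uvrag, Atg9a, Nbr1, Lamp1, Atg2a and Atg2b, all higher in HD than in WT, were called below WT in WNT5B-labelled libraries, from -1.93 for Atg2b to -0.30 for Atg2a (adjusted p = 2.7e-08 and 0.00144).

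Other genes of the pathway were taken from a list of 71 (upstream control, further receptors and conjugation genes, fusion with lysosomes), of which 69 were tested. In HD against WT 25 were higher, 12 lower and 32 not called, with a median of 0.08, and 45.1 percent of all genes were called (24.5 higher, 20.7 lower). With a spread per group 35 were higher and 26 lower (43.1 and 39.9 percent of all genes). The 4 with the smallest p were Rragc, Tsc1, Wdr45b and Mtmr3. Rragc, a Rag GTPase that brings mTORC1 to lysosomes, rose from 4186 ± 38.3 to 7875 ± 139.8 (log2 0.91, SE 0.03, limma adjusted p = 6.1e-07). Tsc1, a brake on mTORC1, rose by 0.57, Wdr45b, a WIPI protein, by 0.98, and Mtmr3, a phosphatase that removes the autophagic lipid, by 0.71 (adjusted p = 3.5e-06, 5.6e-06 and 7.5e-06). In WNT5B against HD 30 were higher, 31 lower and 8 not called, with 35.8 and 41.7 percent of all genes higher and lower. Lamtor4 and Lamtor2, parts of the lysosomal anchor of the Rag GTPases, rose by 3.10 and 2.91, while Rraga, a Rag GTPase, and Mtmr3 fell by 2.52 and 1.66 (limma adjusted p = 2.3e-09, 2.7e-09, 4.0e-09 and 4.1e-09). With the length and GC trend removed the rises of Lamtor4 and Lamtor2 were 1.41 and 0.65.

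Of 38 lysosomal genes of the CLEAR network, known targets of TFEB, 37 were tested. In HD against WT 16 were higher, 5 lower and 16 not called (median 0.15), against 24.5 and 20.7 percent of all genes higher and lower. With a spread per group 22 were higher and 9 lower (43.1 and 39.9 percent). Atp6v0a1, a subunit of the proton pump that acidifies lysosomes, rose from 24028 ± 423 to 40219.5 ± 236 (log2 0.74, SE 0.03, limma adjusted p = 8.8e-07), Mcoln1, the lysosomal calcium channel, by 0.75 and the protease Ctsf by 0.58 (adjusted p = 1.4e-04 and 4.1e-04). Hexa, a glycolipid hydrolase, fell from 2738 ± 32.6 to 1262 ± 20.8 (-1.12, adjusted p = 2.0e-06). In WNT5B against HD 19 were higher, 15 lower and 3 not called (35.8 and 41.7 percent of all genes). The cathepsin gene Ctsd had means of 17010.4 ± 111 and 90611 ± 4770.0 (log2 2.41, SE 0.04, limma adjusted p = 1.7e-10, and 1.73 with the length and GC trend removed). A further gene model overlaps 34.37 percent of its exon bases. Of 10 proton pump genes 5 were higher and 5 lower. The subunit Atp6v0c, named after its value was seen, fell by 3.68 (limma adjusted p = 8.0e-06). The pump subunit Atp6v0b rose from 6529 ± 118 to 26207 ± 2069, and the pump subunit Atp6v0d1 rose by 1.08 (limma adjusted p = 3.8e-09 and 6.6e-09). With the trend removed the values of these pump genes were 0.39 and 0.25 on the log2 scale.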

How the data were processed

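RNA of mouse brain was measured in 9 libraries, 3 per group, grouped by their titles. Per the labels, poly(A) RNA was selected and libraries were made with a NEBNext Ultra RNA kit, which does not mark strand. Alignment was with STAR to mm10, per the submitters' processing notes, and no version, counter or normaliser is given in the sources used here. The authors deposited a signal per gene and library, a decimal number. Low values are multiples of a library's own step (95.11 to 98.65 percent of them within 0.01), and dividing the sums by this step, if it is the value of 1 read, estimates a depth of 67.7 to 77.7 M for WT, 69.7 to 90.6 M for HD and 37.2 to 52.1 M for WNT5B-labelled libraries. A few genes hold remnants far below 1 step, so whole reads could not be taken as recovered, and no count test was used. If the step is 1 read, the variance between replicates was above that of counting in each pair. It was so by 1.72 to 3.22 times (WT), 1.74 to 2.11 times (HD) and 37.6 to 39.04 times (WNT5B), over genes with a mean of at least 100. All 9 libraries were kept as separate, but this cannot tell separate animals from repeat preparations of 1 RNA.

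The filter required 3 or more libraries at 10 or above and kept 15411 of 21853 genes. log2(value + 3) was fitted with limma 3.58.1 in R 4.3.3, with 1 mean per group across the 9 libraries and the prior variance following mean level. Adding 3 makes fold changes of low genes smaller. Identifiers were matched to GENCODE M21, which gave positions, exon overlaps, transcript lengths and GC content. The fit was tested on simulated data. The 36 genes and the 2 further lists were chosen with earlier results of these data known, and no list was tested as a set. All 36 genes are named, with the 4 smallest adjusted p of each further list in the first 2 comparisons, except 1 gene that is not reported here. A full CLEAR element was to select the promoters shown, and as no gene had one, 4 of the 5 with the E-box were chosen after the search. Atg14 was left out because its E-box reaches past the start into transcribed bases. Alternatives covered scaling, added constant, filter, a spread per group, 2 groups only, a replicate block, the length and GC trend, and each library left out. Same-numbered libraries did not deviate together (correlation of deviations -0.023 to 0.024), so the block is an alternative only.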

Additional observations from a re-analysis of the deposited data

How the results depend on the processing

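In HD against WT, 15 autophagy genes were higher and 1 lower. With single libraries left out the counts were 13 to 17 and 1 to 3, and those of all genes 5421 to 8949. With a weight per group 7 were lower and 12779 of all genes called, in the 6 libraries of these groups alone 7 and 12858, and with upper-quartile factors 2 were lower. No sign of a called difference changed in this comparison. With the replicate number as a block 14 were higher and 1 lower, Wipi2 being lost (limma adjusted p = 0.0698), and 6402 of all genes called. No other call of the 36 changed under the block in any comparison.

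In WNT5B against HD the 14 higher and 17 lower genes became 14 and 17 to 20 without single libraries (all genes 11063 to 12532), and in WNT5B against WT 16 to 17 and 14 to 16 (11210 to 12621). With equal totals 7 and 8 were higher in these comparisons, and 32.02 and 31.65 percent of all called genes were higher in place of 46.19 and 46. Against HD, equal totals reversed Atg13 (-0.54), Atg14 (-0.11), Atg7 (-0.06), Map1lc3b (-0.04) and Gabarapl1 (-0.28), the length and GC correction Atg12 (0.35), Gabarapl1 (-0.38) and Lamp2 (0.50), and leaving out single libraries Atg13 (-0.09 to 0.08). Against WT, equal totals reversed Atg13 (-0.20), Atg4b (-0.05), Map1lc3b (-0.11), Gabarapl1 (-0.11) and Gabarapl2 (-0.55), and the correction Rb1cc1 (0.18), Atg12 (0.07), Gabarapl1 (-0.22), Gabarapl2 (-0.33) and Lamp2 (0.73). Equal totals lower every WNT5B value by construction, since these libraries have larger sums (79.88 to 83.75 against 54.57 to 55.8 M). For the other changes the cause was not tested. The edgeR and DESeq2 fits that had been planned were not run, since the values are not counts. The values of these genes were all above 200. WNT5B-labelled libraries had the lower estimated depth and the wider scatter (above), and the part of either in these results was not tested.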
